A study of Mus musculus with 6 samples.

Results

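The genes described here mark megakaryocytes, the large marrow cells that shed platelets, and the platelets themselves. They were chosen by name and not by their values, though with earlier results of these data known: Pf4, Ppbp, Gp1ba, Gp1bb, Gp5, Gp6, Gp9, Vwf and Treml1. All 9 were found among the 22824 rows of each library, and all 9 passed the filter on low values. RNA-seq was done on femurs of C57BL/6 mice in 2 groups of 3 libraries. OE mice carried R26-Wnt7b, which adds the secreted signalling protein Wnt7b, and 9.6kb DMP1-Cre, whose Dmp1 sequence is active mainly in osteocytes and mature osteoblasts, and were homozygous per the labels. Ctrl mice were littermates with R26-Wnt7b and without Cre, so both groups carried that allele. The labels give neither age nor sex. The labels describe every femur as cleared of cartilage and marrow cells, yet all 6 libraries held every neutrophil and erythroid marker matched. Nothing in the labels ties libraries to separate animals, and p-values here therefore speak only of the spread among these samples, which may be technical.

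Megakaryocytes sit against marrow sinusoids and grow by repeated rounds of DNA replication without division under the hormone thrombopoietin. They fill their alpha granules with chemokines and von Willebrand factor, and they place on their membranes the receptors that platelets later use at a wound. Platelets carry some of this RNA with them, so bulk RNA from bone can hold transcripts of the parent cell and of platelets trapped in vessels. In bulk samples fewer cells of a type and less RNA per cell cannot be told apart.

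Values are FPKM as deposited by the authors, read fragments scaled by transcript length and by the mapped total, so levels are per length and can be set side by side between genes. For each gene they are listed from library 1 to library 3 of a group, and the first Ctrl value is always that of the library labelled Ctrl 1. Absolute depth is unknown, but the steps between low values gave relative depths of 1 to 1.18. Wnt7b itself stood at 2.49, 0.661 and 0.295 FPKM across OE, at 0.909 and 0.00833 FPKM in the first 2 Ctrl libraries, and was listed at 0 in Ctrl 3. Its exact two-sided permutation p was 0.3, and with 3 libraries a side no p can go below 0.1. The library labelled Ctrl 1 thus held more Wnt7b than OE 2 and OE 3. Over the 12177 genes tested it correlated with OE 2 at r = 0.989 and with Ctrl 2 at r = 0.942, a comparison across genes, which are not independent replicates. OE 3 stood apart in marrow cell genes: its mean log2(FPKM + 1) over erythroid genes was 8.11, against 4.10 to 6.63 elsewhere, and over neutrophil genes 10.98, against 11.76 to 12.36. Results are therefore given with and without these 2 libraries.

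The granule chemokines Pf4 and Ppbp were the most abundant members in every library. Pf4 encodes platelet factor 4, which binds heparin-like sugars, and Ppbp encodes the precursor of the neutrophil-attracting chemokine of platelets. They lie side by side on chromosome 5 (GRCm38, plus strand): Ppbp from 90768518 to 90770063 and Pf4 from 90772435 to 90773383, each with up to 3 exons and 2371 bases apart. The bases just before their starts are shown because the neighbours had nearly the same profile over the libraries. They are taken from RefSeq on GRCm38.p6, 5′ to 3′ on the plus strand, chr5:90772185-90772434 for Pf4 and chr5:90768268-90768517 for Ppbp. Capitals mark exact matches on either strand to 3 runs of letters. These are GATAA (a core read by GATA factors), GGAAGT (a core read by ETS factors) and TGTGGT (read by RUNX factors).
Pf4: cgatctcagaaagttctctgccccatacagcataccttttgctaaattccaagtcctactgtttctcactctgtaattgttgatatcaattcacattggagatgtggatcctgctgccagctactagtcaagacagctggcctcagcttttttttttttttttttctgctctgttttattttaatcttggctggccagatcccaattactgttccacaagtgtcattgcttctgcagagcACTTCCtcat
Ppbp: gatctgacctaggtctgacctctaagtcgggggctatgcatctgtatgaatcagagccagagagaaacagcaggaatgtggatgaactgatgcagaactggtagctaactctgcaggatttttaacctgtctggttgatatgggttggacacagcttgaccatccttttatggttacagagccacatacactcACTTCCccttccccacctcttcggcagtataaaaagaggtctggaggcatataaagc
Each of the pair has 1 match to GGAAGT, 10 bases before the start in Pf4 and 57 bases before it in Ppbp. A GATAA match of Pf4 begins 37 bases after its start and so lies beyond the bases shown.

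Pf4 stood at 106, 232 and 734 FPKM across OE and at 207, 477 and 343 FPKM across Ctrl. OE therefore held both the lowest and the highest value, and the groups overlapped. OE averaged 357 ± 332 FPKM against 342 ± 135 for Ctrl (SD, n = 3), but the difference of OE minus Ctrl on the log2(FPKM + 1) scale, the one used for every gene below, was -0.30 (SE 0.69, limma adjusted p = 0.886). Ppbp followed the same order, with 153, 273 and 1088 FPKM across OE and 253, 679.7 and 592 FPKM across Ctrl. Its difference was -0.38 (SE 0.74, limma adjusted p = 0.862). The ratio of Ppbp to Pf4 moved little, between 1.18 and 1.73, while each gene spanned about 7-fold (6.90-fold for Pf4 and 7.10-fold for Ppbp). Together the pair took 0.0422% of all FPKM in OE 1 and 0.305% in OE 3.

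The chemokine genes next to them were far lower. Cxcl5, which begins the row upstream of Ppbp and encodes another neutrophil-attracting chemokine, stood at 0.398, 0.444 and 1.69 FPKM across OE and at 0.599, 2.17 and 1.74 FPKM across Ctrl. The high and low libraries of Cxcl5 were thus the same ones, except that Ctrl 2 and Ctrl 3 lay above OE 3. Cxcl3, on the other side of Pf4, did not exceed 0.230 FPKM in any library. These neighbours were picked by position after the values of Pf4 and Ppbp had been seen.

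**Figure D1:**
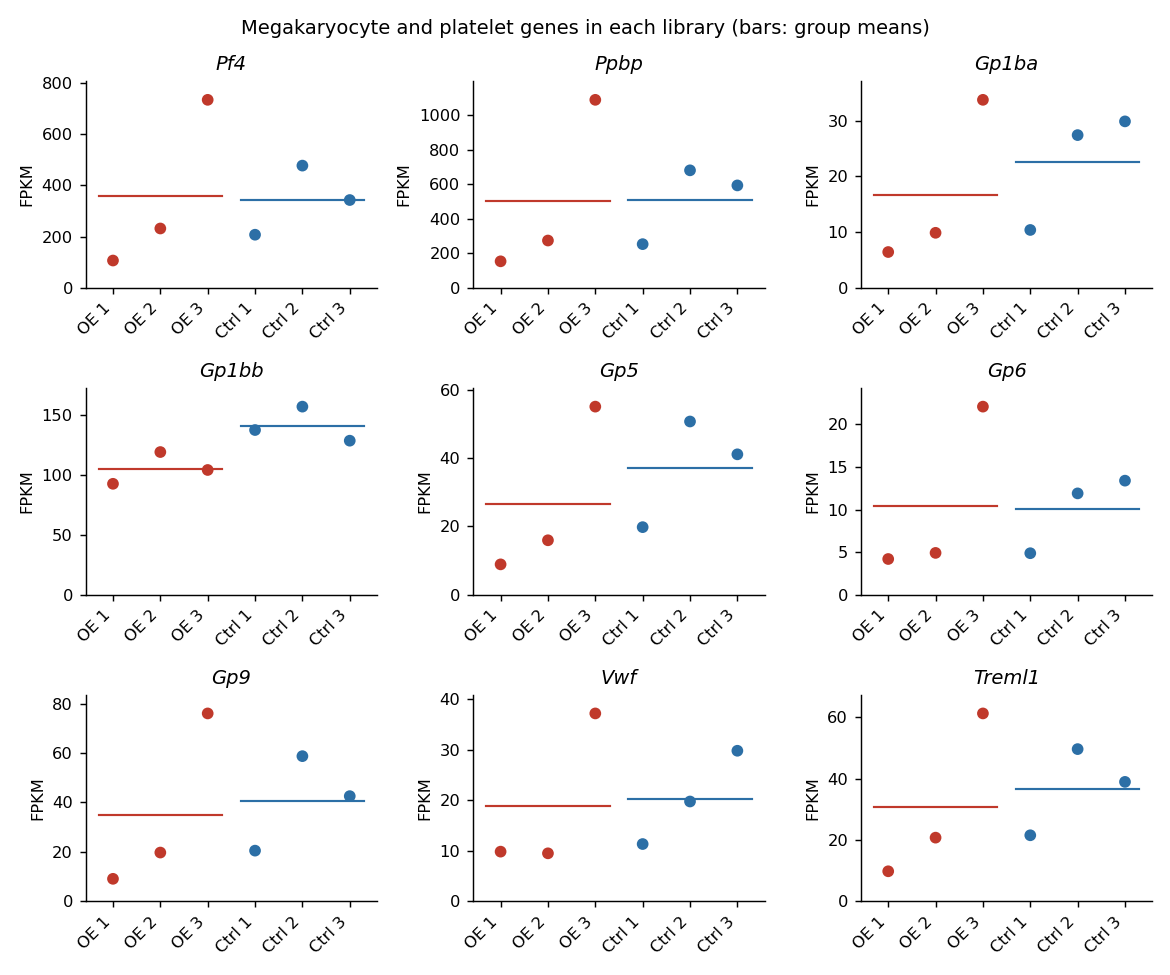
FPKM of each of the 9 genes (vertical axes from 0) in the 6 libraries, with OE in red, Ctrl in blue and a line at each group mean. In 8 genes OE 3 is the highest point and OE 1, OE 2 and the library labelled Ctrl 1 are the 3 lowest, while Gp1bb spans only 92.6 to 157 FPKM.

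Gp1ba, Gp1bb, Gp9 and Gp5 encode the chains of the receptor by which platelets hold on to von Willebrand factor in flowing blood. Gp1ba encodes the chain that binds the factor, Gp1bb a chain joined to it by disulfide bonds, Gp9 a small partner needed to bring the complex to the surface, and Gp5 a chain that thrombin cuts. All 4 products are leucine-rich repeat proteins. Gp1ba lies on chromosome 11 from 70639122 to 70642036 (plus strand), Gp9 on chromosome 6 from 87778072 to 87779768 (plus strand), and Gp1bb and Gp5 on chromosome 16, from 18620317 to 18622403 and from 30307685 to 30310779 (both minus strand, GRCm38). Each has at most 2 exons. Their upstream bases are shown because 3 of the chains varied together and Gp1bb did not. Marks and source are as above, 5′ to 3′ on the gene's own strand: chr11:70638872-70639121 (plus) for Gp1ba, chr6:87777820-87778069 (plus) for Gp9, chr16:30310782-30311031 (minus) for Gp5 and chr16:18622404-18622653 (minus) for Gp1bb.
Gp1ba: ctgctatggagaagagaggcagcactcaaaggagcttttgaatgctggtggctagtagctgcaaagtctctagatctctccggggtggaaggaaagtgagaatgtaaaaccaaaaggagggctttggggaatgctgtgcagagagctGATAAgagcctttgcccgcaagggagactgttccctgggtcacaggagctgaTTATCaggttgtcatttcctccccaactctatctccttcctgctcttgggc
Gp9: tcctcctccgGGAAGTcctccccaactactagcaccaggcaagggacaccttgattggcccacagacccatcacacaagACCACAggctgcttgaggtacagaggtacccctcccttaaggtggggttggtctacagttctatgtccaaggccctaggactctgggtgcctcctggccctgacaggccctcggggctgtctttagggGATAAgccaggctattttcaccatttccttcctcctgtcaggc
Gp5: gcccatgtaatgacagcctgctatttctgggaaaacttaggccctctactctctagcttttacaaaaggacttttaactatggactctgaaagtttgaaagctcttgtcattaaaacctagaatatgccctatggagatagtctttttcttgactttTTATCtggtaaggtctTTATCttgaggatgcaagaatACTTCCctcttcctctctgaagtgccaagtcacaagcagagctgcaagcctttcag
Gp1bb: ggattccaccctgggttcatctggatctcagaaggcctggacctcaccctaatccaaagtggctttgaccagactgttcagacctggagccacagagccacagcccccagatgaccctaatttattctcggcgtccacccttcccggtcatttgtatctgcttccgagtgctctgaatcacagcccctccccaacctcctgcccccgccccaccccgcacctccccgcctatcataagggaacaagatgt
Gp1ba has GATAA matches 103 and 51 bases before the start, and Gp5 has them 93 and 77 bases before it with a GGAAGT match at 56. Gp9 has a GATAA match at 43 bases, a TGTGGT match at 171 and a GGAAGT match at 240. Gp1bb has none of the 3 motifs in this window, which says only that these exact letters are not there. Other forms of sites read by the same factors were not searched.

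Gp1ba stood at 6.42, 9.87 and 33.7 FPKM across OE and at 10.4, 27.4 and 29.9 FPKM across Ctrl. The 3 libraries near 10 FPKM or below were thus 2 from OE and 1 from Ctrl. OE averaged 16.7 ± 14.9 FPKM against 22.6 ± 10.6 for Ctrl (SD, n = 3), with a log2 difference of -0.61 (SE 0.63, limma adjusted p = 0.725). Gp9 stood at 9.12, 19.7 and 76.0 FPKM across OE and at 20.5, 58.7 and 42.6 FPKM across Ctrl. Its span of 8.33-fold between OE 1 and OE 3 was the widest of the 9 genes, and its difference was -0.60 (SE 0.74, limma adjusted p = 0.772). Gp5 stood at 8.87, 15.9 and 55.2 FPKM across OE and at 19.8, 50.8 and 41.2 FPKM across Ctrl. It had the most negative difference of the 9, at -0.76 (SE 0.65, limma adjusted p = 0.673).

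Gp1bb kept a different profile, but its level is uncertain because it overlaps another gene, as given below. It stood at 92.6, 119 and 104 FPKM across OE and at 138, 157 and 129 FPKM across Ctrl. All OE values lay below all Ctrl values, which was the case for no other member and for 8.97% of all genes tested (4.59% had all OE values above). OE averaged 105 ± 13.3 FPKM against 141 ± 14.6 for Ctrl (SD, n = 3), with a log2 difference of -0.42 (SE 0.16). The exact two-sided permutation p was 0.1, the lowest that 3 against 3 libraries allow, and the limma adjusted p was 0.554. Its unadjusted limma p of 0.0386 was the only one below 0.05 among the 9 members, against 8.20% of all genes tested. Under every alternative of the closing section its difference stayed negative, from -0.57 to -0.33, with an adjusted p of 0.0509 or above.

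Gp1bb was also far more abundant than its partners where these were low. Its level was 14.4 times that of Gp1ba in OE 1, 12.1 times in OE 2 and 13.3 times in the library labelled Ctrl 1. In Ctrl 2, Ctrl 3 and OE 3 the ratio was 5.73, 4.31 and 3.09. Gp9 and Gp5 stayed close to Gp1ba by comparison, at 1.42 to 2.25 times and 1.38 to 1.91 times its level. In the annotation Gp1bb overlaps Sept5, a septin gene on the same strand that was not analysed here, so reads from these 2 genes may not have been told apart and the level of Gp1bb is uncertain.

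**Figure D2:**
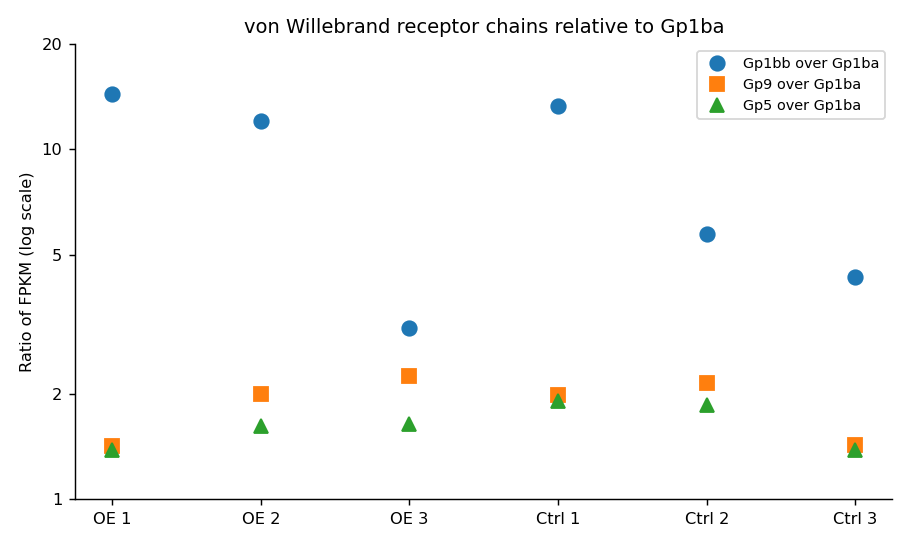
FPKM of Gp1bb (circles), Gp9 (squares) and Gp5 (triangles) divided by the FPKM of Gp1ba in each library, on a log axis. Gp9 and Gp5 stay between 1.38 and 2.25 in all 6 libraries, while Gp1bb moves from 3.09 in OE 3 to 14.4 in OE 1.

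Gp6 and Treml1 encode platelet receptors outside that complex. Gp6, the collagen receptor that signals through the Fc receptor gamma chain, lies on chromosome 7 from 4363965 to 4397744 (minus strand) with up to 8 exons. It stood at 4.18, 4.90 and 22.1 FPKM across OE and at 4.86, 11.9 and 13.4 FPKM across Ctrl. Gp6 was the lowest of the 9 members in all 6 libraries, and its difference was -0.21 (SE 0.62, limma adjusted p = 0.919), although its mean level was 10.4 FPKM in OE and 10.05 FPKM in Ctrl. Fcer1g, its signalling partner that neutrophils and macrophages also express, stood between 350.3 and 724 FPKM and was lowest in OE 3, where Gp6 was highest. Treml1, a receptor stored in alpha granules, lies on chromosome 17 from 48359916 to 48367176 (plus strand) with up to 6 exons. It stood at 9.81, 20.8 and 61.3 FPKM across OE and at 21.5, 49.6 and 39.0 FPKM across Ctrl. These values were close to those of Gp9 in every library, at 0.806 to 1.08 times its level, and the difference was -0.55 (SE 0.63, limma adjusted p = 0.754).

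Vwf encodes von Willebrand factor, the adhesive ligand of the receptor above, which both megakaryocytes and endothelial cells make. It lies on chromosome 6 from 125546774 to 125686679 (plus strand) with up to 52 exons. Vwf stood at 9.83, 9.50 and 37.1 FPKM across OE and at 11.3, 19.7 and 29.8 FPKM across Ctrl. Among the members, OE 2 was lower than OE 1 in Vwf alone. OE averaged 18.8 ± 15.9 FPKM against 20.3 ± 9.23 for Ctrl (SD, n = 3), with a difference of -0.29 (SE 0.56, limma adjusted p = 0.865). The ratio of Vwf to Gp9 was 1.08 in OE 1, against 0.336 to 0.699 elsewhere.

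Endothelial genes did not share the profile of Vwf as a list. The 18 genes summed to 281, 221 and 194 FPKM across OE and to 270.2, 202 and 192 FPKM across Ctrl, and none was listed at 0 in any library. Their sum was thus highest in OE 1, where the ratio of Vwf to Gp9 was highest too. The next highest ratio, 0.699, was that of Ctrl 3, where the sum was lowest. The part of endothelial RNA in the level of Vwf was not tested. Across the 6 libraries the correlation of log2(FPKM + 1) with Vwf was negative for 13 of the 18, with a median r of -0.61. Cdh5, the cadherin of endothelial junctions, stood at 21.5 FPKM in OE 1 and 11.4 in OE 3, with a group difference of 0.46 (SE 0.27, limma adjusted p = 0.567). Emcn, a sialomucin of vessel walls, stood at 19.4 FPKM in OE 1 and 6.58 in OE 3, with a group difference of 0.63 (SE 0.53, limma adjusted p = 0.664). Stab2 and Flt4, both known from sinusoidal or lymphatic endothelium and named after their values were seen, correlated with Vwf at r = 0.857 and r = 0.903. These correlations describe 6 libraries that also differ in many other genes.

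Taken as a group, 8 of the 9 genes varied together between libraries and by more than most genes. The highest library was 6.22 times the lowest in the median member, against 1.68 times in the median of all genes tested. OE 3 was highest in 8 of 9 members, as in 16.4% of all genes tested, and OE 1 was lowest in 8, as in 21.1%. In the 8 members other than Gp1bb, Ctrl 2 and Ctrl 3 both lay above OE 1, OE 2 and the library labelled Ctrl 1, as they did in 22.5% of all genes tested. The neighbours in this order were close: the library labelled Ctrl 1 lay at 0.895 to 1.24 times OE 2, and Ctrl 3 at 0.718 to 1.51 times Ctrl 2, over all 9 members. The 28 pairs of members without Gp1bb correlated at r = 0.851 to 0.998 over the 6 libraries, with a median of 0.967. The 8 pairs with Gp1bb, whose level is uncertain as given above, correlated at r = 0.0991 to 0.493.

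Between OE and Ctrl no member passed the test with all 6 libraries. All 9 differences were negative, from -0.76 to -0.21 with a median of -0.42, where 56.3% of all genes tested were negative with a median of -0.04. Members other than Gp1bb correlated at r = 0.851 to 0.998 over the libraries, so the 9 signs are not independent counts. In the main fit limma called 0 members at an adjusted p of 0.05 (adjusted p from 0.554 to 0.919), and it called 0 of the 12177 genes tested, which is 0%. At an unadjusted p under 0.05 it had 999 genes, or 996 without a trend in the variance. The sign rested on OE 1: without it 6 of the 9 differences turned positive, and the median was 0.04. Leaving out OE 2 or Ctrl 3 turned Gp6 and Vwf positive. The mean log2(FPKM + 1) level over the members was 5.33 ± 1.14 in OE against 5.78 ± 0.61 for Ctrl (SD, n = 3).

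Without OE 3 the 9 differences were all negative, as in 55.1% of genes tested, and ran from -1.46 to -0.42. None passed (limma adjusted p = 0.622 for each, with 0% of genes called), and 4 members had an unadjusted p under 0.05 (Gp1ba, Gp5, Gp9 and Treml1), as had 5.95% of genes. In 6 of the 9, namely Gp1ba, Gp1bb, Gp5, Gp9, Treml1 and Vwf, the 2 remaining OE values lay below all Ctrl values, against 13.4% of all genes tested. Without the library labelled Ctrl 1 the 9 differences, again all negative (58.5% of genes), ran from -1.15 to -0.44. Limma called 0 members there (adjusted p from 0.375 to 0.738), while it called 4.90% of all genes tested, with 0.649% lower in OE, and Gp1bb alone had non-overlapping groups, against 18.6%. Without both libraries it called 7 of the 9 lower in OE, where it called 3.48% of all genes lower and 11.4% in either direction. In the same 4 libraries it called 15 of 16 erythroid genes lower, with a median of -2.02 against -1.55 for the members, and 10 of 10 osteoblast and osteocyte genes higher. In all 9 members both OE values lay below both Ctrl values, against 28.0% of genes, and 56.1% of genes had a negative difference. Gp5 had the largest of these differences, at -1.85 (SE 0.27, limma adjusted p = 0.00651), followed by Gp9 at -1.82 (SE 0.34, adjusted p = 0.0173) and Gp1ba at -1.72 (SE 0.21, adjusted p = 0.00362). Ppbp, Treml1, Gp6 and Vwf were the other 4, and Pf4 (adjusted p = 0.0795) and Gp1bb (adjusted p = 0.321) did not pass. These 2 libraries were left out because earlier results of these data had set them apart. In the 8 members other than Gp1bb, OE 3 was the highest library and the library labelled Ctrl 1 the lowest of Ctrl. Leaving out either or both therefore had to make these differences more negative. The calls, the unadjusted p under 0.05 and the counts of non-overlapping groups in these fits are no separate support for a group difference. With 2 against 2 libraries remaining, the calls describe those 4 libraries.

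**Figure D3:**
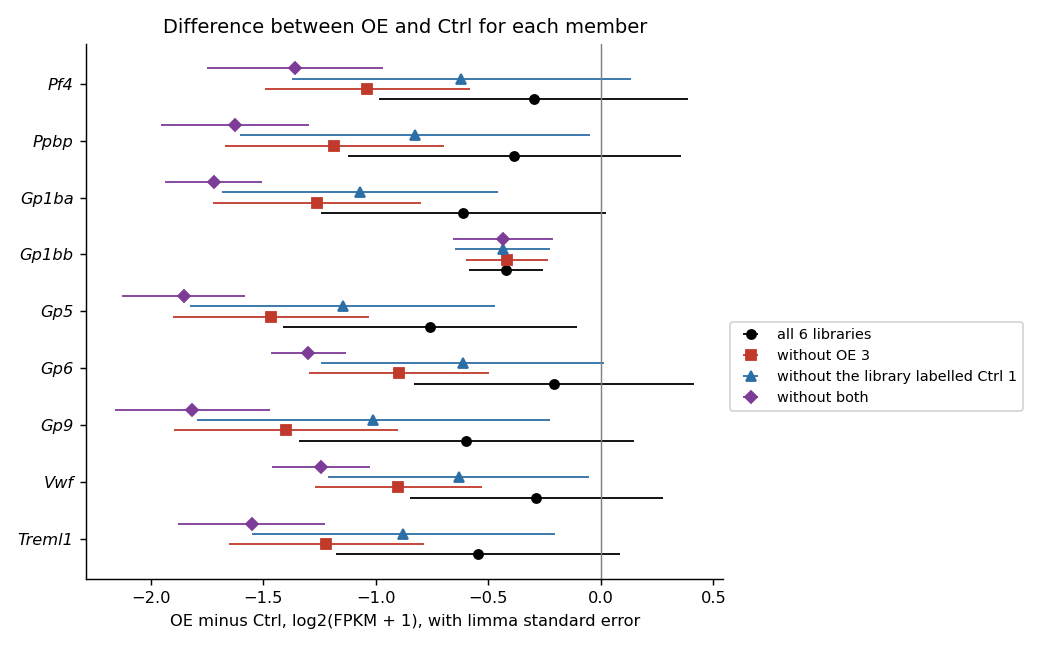
OE minus Ctrl on the log2(FPKM + 1) scale with the limma standard error for each gene, with all 6 libraries (circles), without OE 3 (squares), without the library labelled Ctrl 1 (triangles) and without both (diamonds). For 8 genes the difference moves from between -0.76 and -0.21 to between -1.85 and -1.24, while Gp1bb stays near -0.42 in all 4 fits.

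Other genes of platelets covered the whole range from the profile of the members to none of it. The lists and the members were chosen by name with earlier results of these data known. In the main fit with all 6 libraries limma called 0 genes of any list here. Of 14 receptors and integrins 13 had a negative difference, with a median of -0.40 that ran from -0.78 without OE 3 to -0.049 without OE 1. In 12 of them Ctrl 2 and Ctrl 3 both exceeded OE 1, OE 2 and the library labelled Ctrl 1. Clec1b, a receptor for podoplanin, ran from 9.89 FPKM in OE 1 to 68.6 in OE 3, and the library labelled Ctrl 1 held 19.2. Itga2b, the alpha chain of the fibrinogen receptor, ran from 24.2 to 119 FPKM over the same 2 libraries and was named after its values were seen. Selp, the P-selectin of granule membranes that endothelium also makes, stood at 8.95, 8.62 and 11.6 FPKM across OE and at 9.21, 18.01 and 18.8 FPKM across Ctrl. Its difference was -0.56 (SE 0.28, limma adjusted p = 0.560) and became -0.87 (SE 0.17, adjusted p = 0.0456) without the library labelled Ctrl 1. That library held the lowest Ctrl value of Selp, so leaving it out had to widen the difference. Limma called 0.649% of all genes tested lower in OE there. Ptgir, the prostacyclin receptor, lay lower in all OE than in all Ctrl libraries (11.6 to 13.4 against 14.2 to 16.4 FPKM), with a difference of -0.30 (SE 0.13, limma adjusted p = 0.554). Of the 14 receptors it alone had this order, against 8.97% of all genes tested. P2rx1, an ion channel opened by ATP, ran from 8.05 FPKM in OE 1 to 26.2 in Ctrl 2 (difference -0.54, SE 0.39, limma adjusted p = 0.619). Itga2, the alpha chain of a collagen-binding integrin, was the receptor with a positive difference, 0.55 (SE 0.38, limma adjusted p = 0.606), at 1.65 to 5.60 FPKM.

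Of the 9 granule genes 8 had a negative difference (median -0.33, and -0.64 to -0.21 with 1 library left out). Of the 13 cytoskeleton and signalling genes tested all 13 did (median -0.32, and -0.53 to -0.18 with 1 library left out). The ratio of OE 3 to OE 1 ran from 0.686 in Srgn to 4.76 in Mmrn1 among granule genes, with a median of 1.36. Among cytoskeleton and signalling genes it ran from 0.463 in Dnm3, which was under the filter, to 6.20 in Tubb1. Genes in between were F5 at 1.36, Thbs1 at 1.86, Plek at 2.19, Tbxas1 at 2.94 and Myl9 at 2.95. Rab27b, a small GTPase of granule release, and Mmrn1, a granule protein that binds coagulation factor V, stood at 3.71 and 4.76 on that ratio. Alox12, the platelet lipoxygenase, ran from 11.4 FPKM in OE 1 to 69.0 in OE 3, and Tubb1, the tubulin of the platelet rim, from 17.2 to 107. Srgn, the granule proteoglycan that myeloid cells share, stood at 674 FPKM in OE 1 and 463 in OE 3 (difference -0.56, SE 0.31, limma adjusted p = 0.563). Vps33b, a protein of granule assembly, and Clu, the chaperone clusterin, had differences of -0.28 and -0.34 (limma adjusted p = 0.569 and 0.622). F13a1, which encodes a chain of the fibrin-crosslinking factor and is also made by macrophages, had a difference of -0.46 (SE 0.23, limma adjusted p = 0.560). Fermt3, which activates integrins in all blood cells, stood at 112, 147 and 145 FPKM across OE and at 173, 228 and 205 FPKM across Ctrl. All its OE values lay below all Ctrl values, as in 8.97% of all genes tested, and like Bin2 it was named for a small limma p. Its difference was -0.58 (SE 0.19, limma adjusted p = 0.554). Bin2, a membrane-shaping protein of blood cells, also did not overlap, at 72.2 to 91.2 FPKM in OE and 104 to 135 in Ctrl (difference -0.60, SE 0.17, limma adjusted p = 0.554). Ptgs1, the cyclooxygenase that aspirin blocks in platelets, and Plcg2, a phospholipase of receptor signalling, had differences of -0.27 and -0.35 (limma adjusted p = 0.561 for each).

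Of 11 transcription factors tested, 8 had a negative difference, with a median of -0.20 that was -0.36 without the library labelled Ctrl 1, -0.09 without Ctrl 3 and 0.16 without OE 1. Gata1, which drives both megakaryocyte and red cell genes, stood at 4.54, 8.53 and 45.1 FPKM across OE and at 9.07, 29.5 and 20.7 FPKM across Ctrl. Gfi1b and Tal1, which act with Gata1 in both lineages, were 11.3 and 6.09 times higher in OE 3 than in OE 1. The ratio was 9.94 for Gata1, 1.86 for Meis1, 1.76 for Gata2 and 0.796 to 1.21 for the other factors. Gata2, a factor of early blood cells and mast cells, had a difference of -0.28 (SE 0.26, limma adjusted p = 0.686), and so had Lyl1, a relative of Tal1 (SE 0.17, limma adjusted p = 0.578). Nfe2, needed for platelet release and also present in other blood cells, averaged 157 ± 30.1 FPKM in OE against 208 ± 18.4 for Ctrl (SD, n = 3), with a difference of -0.41 (SE 0.19, limma adjusted p = 0.554). Mef2c went the other way, at 17.0 ± 3.88 FPKM in OE against 8.96 ± 1.87 for Ctrl (SD, n = 3), with a difference of 0.85 (SE 0.22, limma adjusted p = 0.554). All its OE values lay above all Ctrl values, as in 4.59% of all genes tested, and it was named for its small limma p. Mef2c is also active in osteocytes and B cells. Without OE 3 and the library labelled Ctrl 1, limma called 10 of 14 receptors, 3 of 9 granule genes, 4 of 13 cytoskeleton genes and 4 of 11 factors lower in OE, where it called 3.48% of all genes lower. It called 15 of 16 erythroid genes lower in the same libraries.

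**Figure D4:**
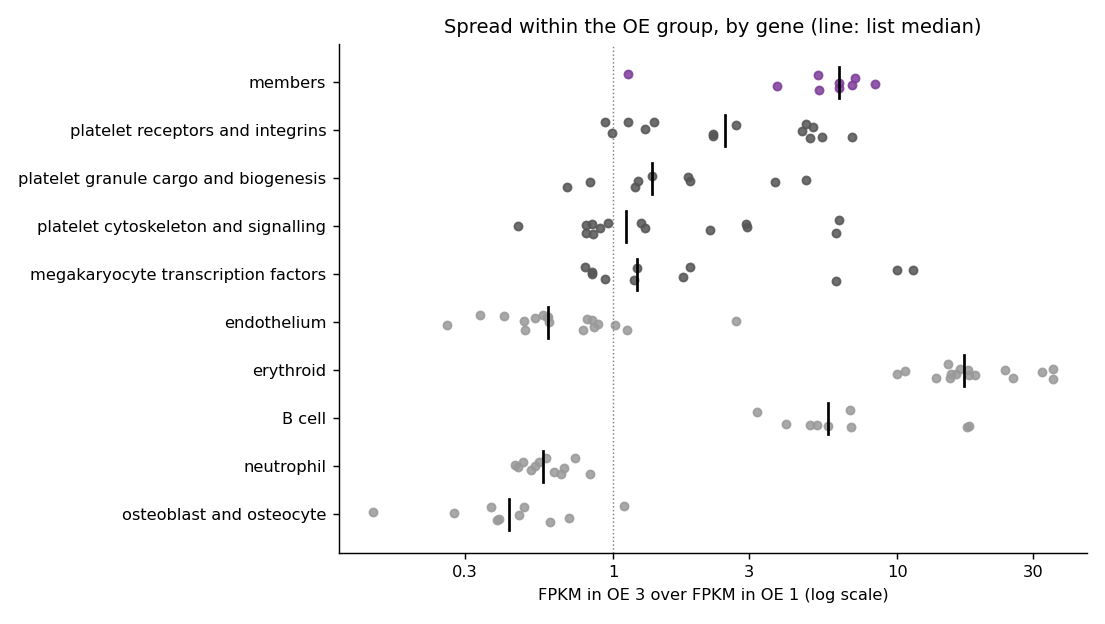
FPKM in OE 3 divided by FPKM in OE 1 for every matched gene of each list, on a log axis, with a line at the list median. The members sit at 3.78 to 8.33 apart from Gp1bb at 1.12, the erythroid genes at 9.93 to 35.4, and the neutrophil genes all below 1.

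Markers of other marrow cells moved between the same libraries. The 16 erythroid genes matched were all highest in OE 3, and in all 16 Ctrl 2 and Ctrl 3 lay above OE 1, OE 2 and the library labelled Ctrl 1, as in the 8 members. Their sum ran from 1434 to 45869 FPKM in OE and from 1775 to 10259 in Ctrl. Their ratio of OE 3 to OE 1 was 17.2 in the median gene, against 6.22 in the median member. The median erythroid difference of OE minus Ctrl was -0.14, with 12 of 16 negative, and ran from -1.35 without OE 3 to 0.56 without OE 1. Epor, the erythropoietin receptor, had a difference of -0.45 (SE 0.81, limma adjusted p = 0.854), and the globin gene Hbb-bs, which has a near-identical copy and is uncertain, one of 0.55 (SE 1.37, limma adjusted p = 0.896). All 9 B-cell genes were highest in OE 3 too (summed 54.8 to 437 FPKM in OE and 56.8 to 71.9 in Ctrl), but in only 1 of them did Ctrl 2 and Ctrl 3 exceed OE 1, OE 2 and the library labelled Ctrl 1. Their difference was positive in 9 of 9, with a median of 0.90, and Ebf1 and Igll1, genes of early B cells, had differences of 1.26 and 2.46 (limma adjusted p = 0.554 for each). All 12 neutrophil genes were lowest in OE 3 (summed 61534 to 172253 FPKM in OE and 107854 to 148327 in Ctrl). Their difference was negative in 12 of 12, as in 9 of 9 members, with a median of -0.62 against -0.42. Mpo and Mmp8, enzymes of neutrophil granules, had differences of -0.86 and -0.45 (limma adjusted p = 0.554 and 0.561). All 10 osteoblast and osteocyte genes were lowest in Ctrl 2 and Ctrl 3, summing to 479 and 397 FPKM there and to 4231 to 7069 in the other 4 libraries. Their difference was positive in 10 of 10, with a median of 1.93. Phex and Ibsp, genes of bone mineral and matrix, had differences of 2.37 and 1.63 (limma adjusted p = 0.554 for each). Without the library labelled Ctrl 1 these became 3.39 and 2.32 (limma adjusted p = 0.00444 and 0.0112), where limma called 4.90% of all genes tested. That library was the highest of Ctrl in both genes and had been set apart by earlier results. Leaving it out therefore had to widen these differences, and the smaller p-values are no separate support for a group difference. None of the genes of these 4 lists was listed at 0 in any library, and the part of these cells in the differences of the members was not tested.

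**Figure D5:**
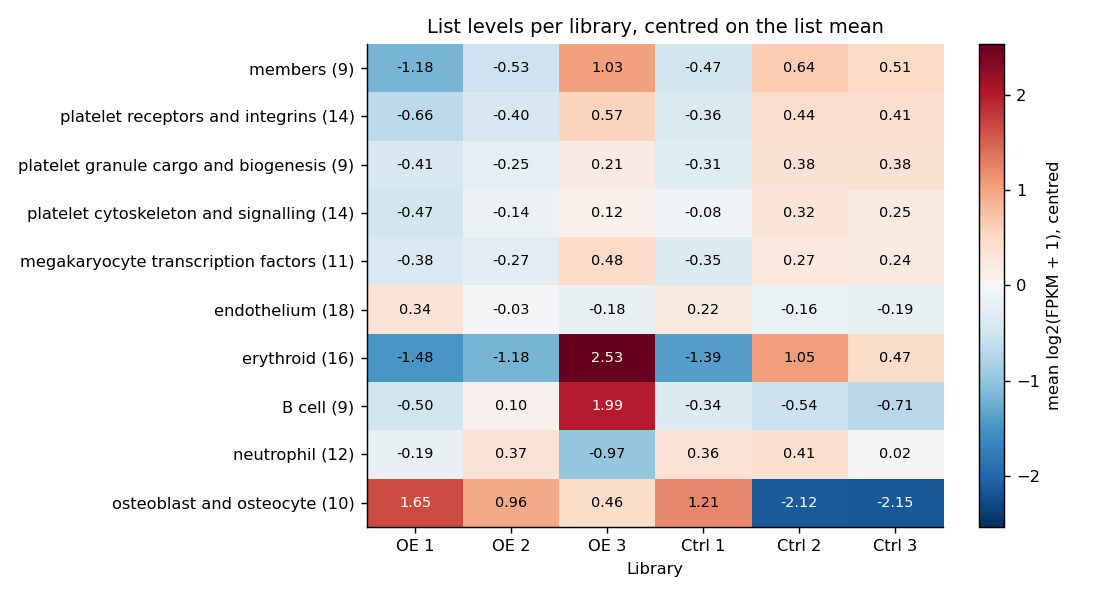
Mean log2(FPKM + 1) of each list in each library, centred on the list's mean over the 6 libraries, with the number of genes matched in brackets. The members run from -1.18 in OE 1 to 1.03 in OE 3. The other platelet and megakaryocyte lists and the erythroid list have the same sign as the members in all 6 libraries.

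Of the 8 genes most like the members over the 6 libraries, 5 came from the platelet lists. By Pearson r with the mean centred level of the 9 members, the closest was Alox12 (r = 0.999), and Gata1 (0.993), F2rl3, a thrombin receptor (0.993), and Clec1b (0.993) were among the others. The 3 outside these lists were 2610528J11Rik, Supt16, a histone chaperone, and Diaph3, a formin that builds actin filaments. Supt16 moved only from 40.3 FPKM in OE 1 to 50.1 in OE 3, so a like order does not mean a like size. For Vwf alone the closest were Usp11, Adcy5, Slco2b1, Sik1 and Nlk (r = 0.989 to 0.994), none of them in a list here. Of the 11768 genes tested with a symbol besides the members, 4.23% had an r above 0.9 with the members. So did 9 of 14 platelet receptors, 2 of 9 granule genes, 5 of 13 cytoskeleton genes and 4 of 11 transcription factors. Outside the platelet lists, 15 of 16 erythroid genes, 1 of 18 endothelial genes (Stab2) and 1 of 9 B-cell genes did. With 6 libraries that share the same large contrasts, these values describe a shared order and no more.

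The 300 bases around each start site were searched for the 3 motifs in the 8 members matched by symbol in the RefSeq promoter table, and Vwf had no entry. GATAA or its reverse complement was present in 5 of the 8, in Pf4, Gp1ba, Gp5, Gp6 and Gp9, against 25.4% of all 32851 promoters. GGAAGT was present in 5, in Pf4, Ppbp, Gp5, Gp6 and Gp9, against 23.8%, and TGTGGT in Gp9 alone, against 16.8%. Both GATAA and GGAAGT were found in Pf4, Gp5, Gp6 and Gp9, against 5.96% of all promoters. Gp1bb and Treml1 held none, although Treml1 varied with the other members and Gp1bb did not. No match overlapped another, and a match is a run of letters and no measured site of binding.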

How the data were processed

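RNA-seq of mouse femurs was analysed in 6 libraries, 3 OE and 3 Ctrl, grouped by the sample titles. The submitters' processing notes list TopHat2, Cufflinks, DESeq and the mm10 build; their roles and versions, and whether counting used strand, are not given in any source used here. Every deposited file gives an FPKM value for each gene, so abundant genes lower all others in a library. Of 22824 rows, 21172 matched a symbol in GENCODE M21 (GRCm38). Promoters are from RefSeq (GRCm38.p6).

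Because there were no counts, log2(FPKM + 1) was fitted with limma 3.58.1 in R 4.3.3 (trend, Benjamini-Hochberg over all 12177 genes with at least 1 FPKM in 3 libraries, threshold 0.05). Differences on this scale understate low genes. The fit was tested on simulated data with independent noise in each gene. The real libraries share large contrasts, so that test does not show what the fit can detect here. Single values were compared by exact permutation. Tables used Python 3.11.15 with pandas 2.3.3 and numpy 2.4.6, permutations scipy 1.17.1 and plots matplotlib 3.10.9. Named genes are the members, Wnt7b, the 4 genes with the smallest p of each platelet list and 2 of each other list, and those most like the members or Vwf. Other genes were named after their values were seen: Itga2b, Mmrn1, Rab27b, F5, Thbs1, Dnm3, Plek, Tbxas1, Myl9, Tubb1, Fcer1g, Gfi1b, Tal1, Meis1, Stab2, Flt4 and the chemokine neighbours. Nbeal2, Zfpm1, Ahsp and Rag1 were not analysed here, and 1 gene that the likeness rule names is not reported here. Members and lists were chosen with earlier results of these data known.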

Additional observations from a re-analysis of the deposited data

How the results depend on the processing

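The alternatives were a pseudocount of 0.1, no filter, a filter of 5 FPKM, limma without trend, trimmed-mean (TMM) scaling, median scaling without marrow cell lists, the replicate block, array weights, each library left out, and OE 3 and the library labelled Ctrl 1 left out together. With all 6 libraries 0 genes were called in the main fit and in every alternative except array weights, where 1394 were. The count was 1388 without OE 3 and the library labelled Ctrl 1. With 1 library left out it was 0 to 597, the 597 without the library labelled Ctrl 1. The median difference of the members was -1.55 without OE 3 and the library labelled Ctrl 1, and -1.19 to 0.04 when 1 library was left out. Leaving out 1 library gave -1.04 to 0.35 for Pf4, -1.19 to 0.22 for Ppbp, -0.90 to 0.18 for Gp6, -1.40 to 0.063 for Gp9, -0.90 to 0.031 for Vwf and -1.22 to 0.043 for Treml1; the positive values came without OE 1 and, for Gp6 and Vwf, also without OE 2 or Ctrl 3. Gp1ba, Gp1bb and Gp5 stayed negative in all of these. In the other 8 settings with all 6 libraries every member stayed negative and none was called; with array weights the median was -1.31 and Gp1bb came closest (adjusted p = 0.0509). In that setting 8 of the other genes whose differences are given passed (Bin2, Fermt3, Mef2c, F13a1, Selp, Ebf1, Ibsp and Phex, adjusted p from 0.037 to 0.0465). Hbb-bs turned to -1.25 there and to -1.74 without OE 3 and the library labelled Ctrl 1. With 1 library left out it ran from -1.04 to 1.53 and Epor from -1.37 to 0.16. No other list gene whose group difference is given above changed sign. List genes named without a difference, such as Gata1, Clec1b and Tubb1, are not covered by that statement. In the same leave-outs the median of the endothelial list ran from -0.066 to 0.19, that of the B-cell list from 0.25 to 1.34, that of the neutrophil list from -0.94 to -0.21 and that of the osteoblast list from 1.39 to 2.97. Whether the same replicate numbers pair the libraries was not settled. Deviations correlated at 0.44, 0.09 and 0.31 for the same numbers, and at -0.62 to 0.42 for different numbers. OE 2 correlated better with the library labelled Ctrl 1 (0.14), and OE 3 better with Ctrl 2 (0.42). With the replicate block 0 genes were called, and 1797 rather than 999 had an unadjusted limma p under 0.05. The cause of these shifts was not tested. Absolute depth is unknown, so no counting limit can be given.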
